A study of Rattus norvegicus with 9 samples.

Results

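The potassium channel genes of the lung were described across 7 Wistar rats, 3 with metabolic syndrome (MetS) and 4 controls. A gene was taken as a member when the only symbol of its probe began with Kcn, went on with letters and then carried a number. Of 14497 genes with a single symbol on the array, 83 were members, and 2 of them, Kcnip1 and Kcnip2, had a second probe. Where a gene had several, the brightest on average was used. RefSeq lists 96 rat genes of this name pattern, and the 13 others were not analysed here.

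The MetS rats had a 30% sucrose solution as their only drink for 24 weeks after weaning, and the controls had water. Both groups ate the same standard chow and were fasted for 7 hours before they were killed. For the MetS rats the labels say male, while they give no sex for the controls, so sex and group cannot be told apart. Whole lung RNA was measured on 9 arrays, with a second, technical array for MetS animal 1 and control animal 1 that was averaged with the first. Values are on the log2 scale, so that 1 unit is a factor of 2, and n counts animals.

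Potassium channels let potassium leave or enter the cell and thereby set the membrane potential. In the muscle of lung vessels and airways, an open potassium channel keeps the cell polarised, holds voltage-gated calcium channels shut and relaxes the muscle. In lung epithelium, potassium channels keep up the driving force for chloride secretion and sodium uptake, and in lymphocytes and macrophages they sustain calcium entry. The family falls into voltage-gated channels, calcium- and sodium-activated channels, inward rectifiers, 2-pore-domain leak channels, and auxiliary subunits that change how a pore opens or reaches the membrane.

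The lung label was borne out by its markers. The median of 8 alveolar type 2 cell markers lay between 12.78 and 13.01 in the MetS animals and between 12.85 and 12.88 in the controls, and that of 8 alveolar type 1 cell markers between 12.93 and 13.01 and between 12.93 and 12.98. Some animals stood apart. The spread of all values on an array, as an SD, was 1.76 in control 3 and 1.77 in control 2, against 1.845 to 1.932 in the other 5 animals. Heart muscle genes were far brighter in control 1 and MetS 1 than in the rest: Actc1, the cardiac actin, read 12.06 and 10.72 there, against 7.60 to 8.39 elsewhere. Both matters return beside the members they touch.

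No potassium channel gene passed the test between MetS and control. With limma and adjustment over all 28826 probes, 0 of 83 members had an adjusted p under 0.05, as had 0.0% of all probes, and the smallest adjusted p of a member was 0.324. At an unadjusted p under 0.05, 2 members were higher in MetS, Kcnj15 and Kcnd3, against 3.82% of all probes, and 2 were lower, Kcnh5 and Kcnh7, against 9.91% of all probes. Each of these member counts is 2.41% of the family, below the share of all probes. When the arrays were quantile normalized again the split became 9 higher and 0 lower, where all probes had 2312 higher and 1993 lower. The values of the groups did not overlap for 1 member higher in MetS, Kcnj15, against 4.88% of all probes, and for 2 members lower, Kcnd2 and Kcnh7, against 6.84% of all probes.

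Differences across the family were small. Of the 83 members, 42 had a positive and 41 a negative difference, with a median of 0.00 beside 0.01 over all probes and 0.04 over all genes with 1 symbol. The sizes had a median of 0.07, and 55 members differed by less than 0.1. No member reached a fold of 1.5, the widest being 1.39-fold for Kcnv1. For 75 members the 95% interval of the difference lay wholly inside a 1.5-fold change in either direction. A larger change of the probe value is thus outside the interval of this fit. For the other 8, Kcnh7, Kcnh5, Kcnd2, Kcnv1, Kcnn3, Kcnk1, Kcnip3 and Kcnmb2, the interval reached past 1.5-fold on one side. Where a probe has low signal or hardly varies between arrays, a narrow interval does not bound the change of the RNA.

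The 2 arrays of one animal give the measurement error beside these differences. Between the arrays of MetS 1 the median difference of a member was 0.05, and between those of control 1 it was 0.08, with the widest at 0.27 for Kcnh6 and 0.35 for Kcnd1. The difference of the groups was larger than both array differences for 28 members. It was larger than the pooled SD between animals for 25.

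**Figure D1:**
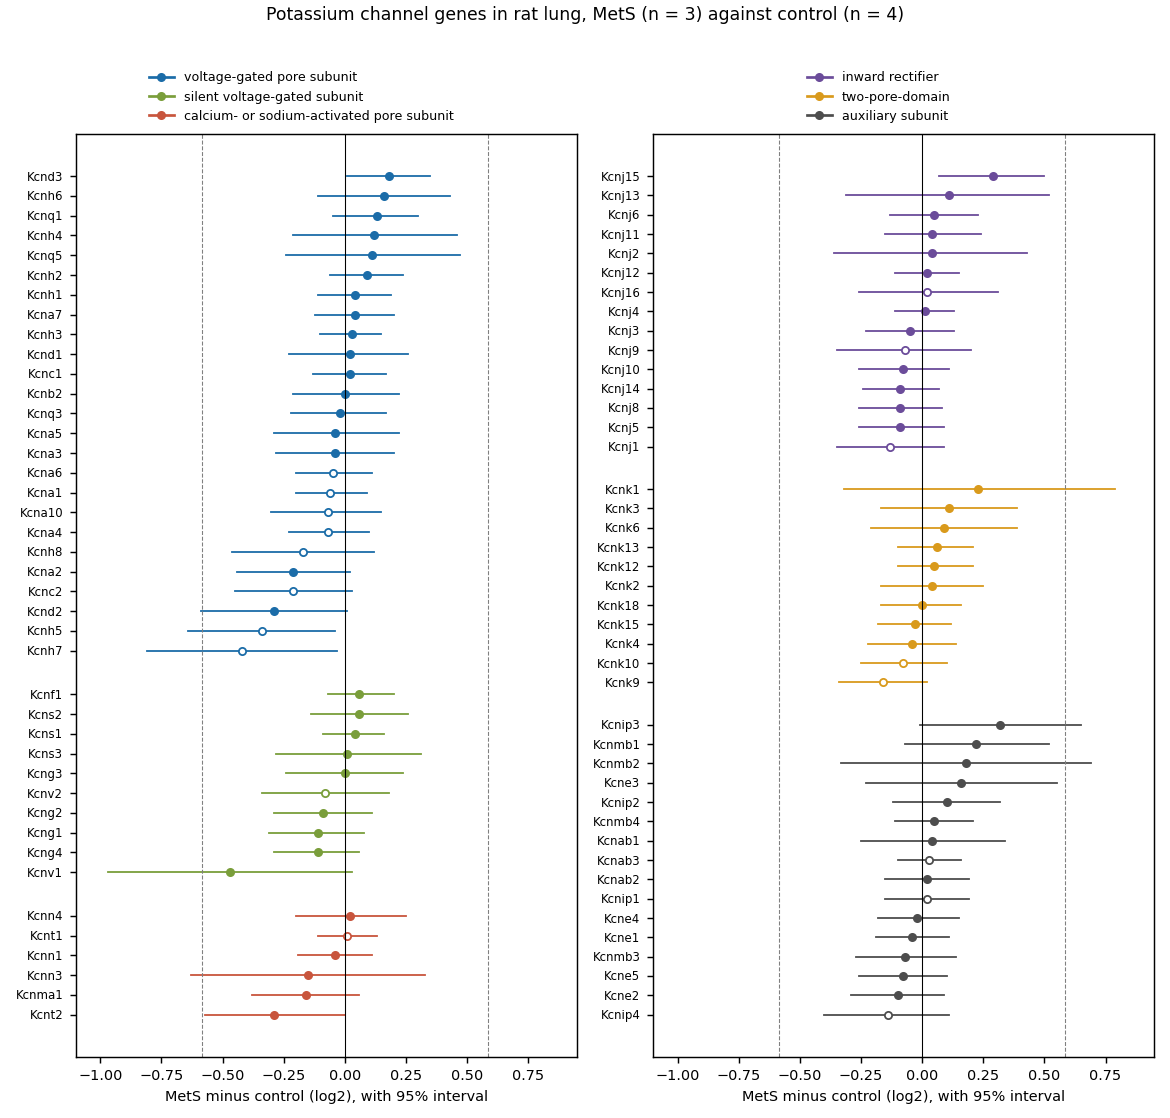
MetS minus control on the log2 scale for the 83 potassium channel genes, grouped by role, with the 95% interval of the limma fit as a line; filled points are probes brighter than the 25th percentile, open points are not. The dashed lines mark a fold of 1.5, which no point reaches, and 75 of the intervals lie between them.

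By the brightness of their probes, 65 members lay above the 25th percentile of probe means, which was 6.48, and 18 lay at or below it. The nearest members inside were Kcnd1 at 6.51 and Kcnv1 at 6.52, and the nearest outside were Kcnk9 at 6.44 and Kcnv2 at 6.43. The 18 dim members were Kcna1, Kcna4, Kcna6, Kcna10, Kcnc2, Kcnh5, Kcnh7, Kcnh8, Kcnv2, Kcnt1, Kcnj1, Kcnj9, Kcnj16, Kcnk9, Kcnk10, Kcnab3, Kcnip1 and Kcnip4. Many of these are channels known from nerve cells. Brightness depends on the probes of each gene, so this sorting does not rank the genes by RNA amount. With each of the 7 animals set against its own 25th percentile, 60 members lay above it in every animal.

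The inward rectifiers, which pass potassium best near rest, had 15 members, 8 with a positive and 7 with a negative difference and a median of 0.01. Kcnj15, an inward rectifier of epithelia, had the smallest p of the family. It read 11.17, 10.97 and 11.00 in MetS animals 1 to 3, and 10.76, 10.93, 10.61 and 10.75 in controls 1 to 4. Every MetS value lay above every control value, with control 2 only just below MetS 2. The means were 11.05 ± 0.11 (SD, n = 3) and 10.76 ± 0.13 (SD, n = 4), a difference of 0.29 ± 0.09 (SE) or 1.22-fold. In limma the adjusted p was 0.324, short of the threshold, and the unadjusted p was 0.0161. The 2 arrays of MetS 1 differed by 0.04 and those of control 1 by 0.01 for this gene, far less than the groups. The difference was 0.29 without controls 2 and 3 and 0.25 with the SD of each animal in the fit. As the RNA came from whole lung, more cells that express the gene and more RNA per cell cannot be told apart, here or for any member.

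The other inward rectifiers had overlapping groups. Kcnj13, also known from epithelia, stood at 9.14 ± 0.39 in MetS and 9.03 ± 0.13 in controls, with MetS 2 at 8.69 below every control and MetS 1 and 3 above every one. Kcnj2, the strong rectifier that stabilises the resting potential of muscle and endothelium, stood at 8.85 ± 0.19 and 8.81 ± 0.29. Its lowest values were 8.47 in control 3, 8.65 in MetS 1 and 8.67 in control 2. Kcnj16, an epithelial partner of other rectifiers and one of the dim members, stood at 5.65 ± 0.14 and 5.62 ± 0.19.

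ATP-sensitive channels, which open when cell energy falls, pair a rectifier pore with a sulphonylurea receptor. Kcnj8, the pore of vascular smooth muscle and pericytes, read 7.74, 7.86 and 7.75 in MetS and 7.96, 7.78, 7.81 and 7.95 in controls, a difference of -0.09 ± 0.07 (SE) with overlapping groups. Its receptor Abcc9 differed by -0.01 ± 0.09 (SE). Kcnj11 and Abcc8, the pair of the insulin-secreting cell, each differed by 0.04. Kcnj8 also had a difference of -0.17 without controls 2 and 3, and of -0.20 with the SD of each animal in the fit. Kcnj3 and Kcnj5, which form the acetylcholine-opened channel of the heart's atria, differed by -0.05 ± 0.08 (SE) and -0.09 ± 0.08 (SE).

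The 2-pore-domain channels carry the background leak that sets the resting potential. Their 11 members had 6 positive and 5 negative differences and a median of 0.04. Kcnk3, an acid-sensitive leak channel whose inherited loss causes pulmonary arterial hypertension in people, read 7.29, 7.66 and 7.34 in MetS and 7.51, 7.13, 7.28 and 7.36 in controls. The groups overlapped, and the difference was 0.11 ± 0.12 (SE), with an interval from -0.17 to 0.39. Kcnk2, the stretch-sensitive channel of this class, differed by 0.04 ± 0.09 (SE).

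Kcnk1 varied most between the controls of this class. It read 10.87, 10.94 and 11.17 in MetS, and 10.89, 10.54, 10.28 and 11.33 in controls 1 to 4. Controls 2 and 3 were the 2 lowest animals and control 4 the highest, so that the controls enclosed the MetS animals. Its difference was 0.23 ± 0.24 (SE), -0.12 without controls 2 and 3, and -0.29 with the SD of each animal in the fit. None of these 3 had an unadjusted p under 0.05. Without control 4, limma called Kcnk1 at that threshold, as 1 of 3 members called higher in MetS (3.61%, all probes 6.99%). Kcnk6, a leak channel known from macrophages, had the same low control 3, at 7.91 against 8.27 to 8.44 in all other animals. Kcnk13 stood at 8.22 ± 0.09 and 8.16 ± 0.05.

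Voltage-gated pore subunits, which open when the membrane depolarises, were the largest class, with 25 members, 12 positive and 13 negative differences and a median of -0.02, which was 0.12 when the arrays were quantile normalized again and 0.07 with the SD of each animal in the fit. Kcna5 forms a channel of pulmonary artery muscle that closes in low oxygen. It read 7.15, 7.14 and 6.93 in MetS and 7.01, 7.29, 7.22 and 6.93 in controls, with overlapping groups and a difference of -0.04 ± 0.11 (SE). Kcna2, which can join it in the same channel, differed by -0.21 ± 0.10 (SE), and control 2 at 8.08 stood above the other animals, which lay between 7.58 and 7.80. Kcna3, the channel of T cells and macrophages, stood at 10.13 ± 0.11 in MetS and 10.17 ± 0.16 in controls. Kcnq5, a slow channel that restrains vascular smooth muscle, stood at 7.78 ± 0.18 and 7.66 ± 0.25. Kcnq1, which carries potassium across the basolateral side of airway epithelium, stood at 9.08 ± 0.05 and 8.96 ± 0.10, a difference of 0.13 ± 0.07 (SE).

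The fast transient channels Kcnd2 and Kcnd3, which pass the transient outward current of heart and nerve cells, differed in opposite directions. Kcnd3 read 8.36, 8.21 and 8.30 in MetS and 8.15, 8.02, 8.07 and 8.21 in controls, so that MetS 2 and control 4 met at the same rounded value. Its difference was 0.18 ± 0.07 (SE) (limma, adjusted p = 0.351), 0.11 without controls 2 and 3 and 0.06 with the SD of each animal in the fit. Kcnd2 read 6.83, 6.64 and 6.77 in MetS and 7.04, 6.88, 7.35 and 6.88 in controls. The groups did not overlap, with controls 2 and 4 closest to MetS 1. Its difference was -0.29 ± 0.13 (SE) (limma, adjusted p = 0.369), and -0.19 without control 3, whose value was the highest. It was -0.21 without controls 2 and 3 and -0.15 with the SD of each animal in the fit. Whether the differences of the 2 genes differ from each other was not tested. With the first array of each animal alone, the groups of Kcnd2 overlapped, as did those of Kcnh7.

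Kcnh5 and Kcnh7 belong to the ether-a-go-go family and are known mainly from the nervous system. Kcnh7 read 5.65, 5.73 and 5.89 in MetS and 5.94, 6.29, 6.55 and 5.91 in controls, a difference of -0.42 ± 0.17 (SE) (limma, adjusted p = 0.348). Kcnh5 read 5.26, 5.37 and 5.54 in MetS and 5.57, 5.97, 5.85 and 5.53 in controls, a difference of -0.34 ± 0.13 (SE) (limma, adjusted p = 0.340). In both genes controls 2 and 3 were the 2 highest animals, and controls 1 and 4 lay close to MetS 3. Both are dim. Without controls 2 and 3 the differences were -0.17 and -0.16. With the SD of each animal in the fit they were 0.01 and -0.02, with the direction of Kcnh7 turned.

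**Figure D2:**
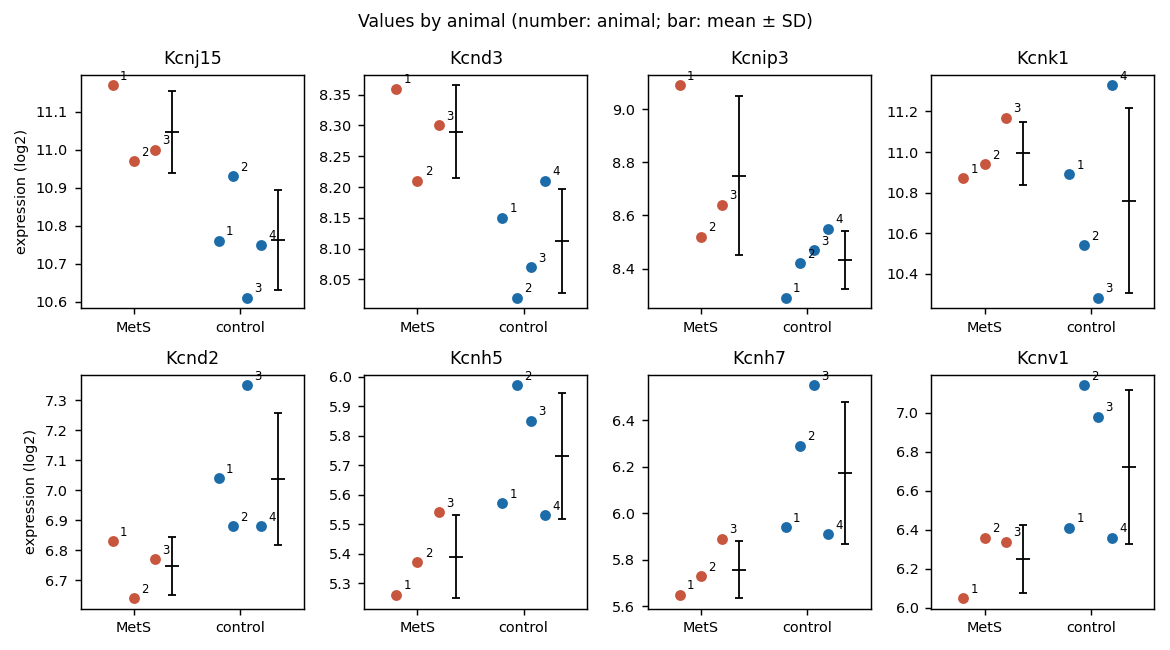
Expression on the log2 scale of 8 potassium channel genes in each animal, MetS in red and control in blue, with the animal's number beside its point and the mean ± SD of the group as a bar; each panel has its own scale. Kcnj15 is the gene whose MetS values, 10.97 to 11.17, all lie above the controls; in Kcnh5, Kcnh7 and Kcnv1 controls 2 and 3 lie above all other animals.

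Promoter sequence was read for the 3 members whose groups did not overlap, to show what kind of start these genes have; the arrays give no readout of a promoter. Each line holds the 250 bases before the RefSeq gene start (build GRCr8), 5′ to 3′ on the gene's strand, with the dinucleotide CG in capitals. CG reads the same on both strands, and many CG near a start mark the CpG island type of promoter, common in broadly used and developmental genes.
Kcnj15, chr11:48070700-48070949, + strand: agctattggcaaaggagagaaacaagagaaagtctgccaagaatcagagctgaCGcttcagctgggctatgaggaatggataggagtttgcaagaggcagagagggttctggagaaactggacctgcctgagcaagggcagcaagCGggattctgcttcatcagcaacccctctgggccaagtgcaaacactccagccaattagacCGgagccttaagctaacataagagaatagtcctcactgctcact
Kcnd2, chr4:50742235-50742484, + strand: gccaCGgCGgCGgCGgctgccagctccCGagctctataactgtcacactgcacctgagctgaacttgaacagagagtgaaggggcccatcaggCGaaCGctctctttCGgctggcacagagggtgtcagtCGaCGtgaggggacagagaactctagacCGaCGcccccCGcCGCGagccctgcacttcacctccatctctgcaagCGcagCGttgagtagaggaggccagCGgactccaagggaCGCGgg
Kcnh7, chr3:68230672-68230921, - strand: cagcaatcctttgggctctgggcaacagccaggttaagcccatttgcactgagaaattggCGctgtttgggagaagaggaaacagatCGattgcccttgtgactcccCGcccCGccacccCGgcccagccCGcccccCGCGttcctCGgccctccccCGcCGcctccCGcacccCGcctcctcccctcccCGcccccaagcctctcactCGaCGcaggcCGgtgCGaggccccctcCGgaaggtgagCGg

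Kcnj15 has 3 CG in this window and Kcnd2 and Kcnh7 have 20 each. Promoters were found for 58 of the 83 members, with a median of 11 CG, and 53.4% of them held at least 10, against 48.6% of 19005 protein-coding promoters and 57.9% of 11946 promoters of genes on the array. The share was 70.6% of the 17 voltage-gated pore subunits with a promoter and 41.7% of the 12 inward rectifiers.

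The silent voltage-gated subunits, which form no channel alone and modify other pores, had 10 members, 4 positive and 6 negative differences and a median of -0.04, which was 0.04 when the arrays were quantile normalized again. Kcns3, which joins voltage-gated pores in pulmonary artery muscle, stood at 7.87 ± 0.22 in MetS and 7.85 ± 0.14 in controls. Kcng1 stood at 8.36 ± 0.07 and 8.47 ± 0.12, and Kcng2 at 8.82 ± 0.05 and 8.91 ± 0.14. Kcnv1, which is named here because its difference was the widest of the family, read 6.05, 6.36 and 6.34 in MetS and 6.41, 7.14, 6.98 and 6.36 in controls. Controls 2 and 3 stood well above the other 5 animals, and control 4 equalled MetS 2 at this rounding. The difference was -0.47 ± 0.21 (SE) (limma, adjusted p = 0.380), -0.13 without controls 2 and 3, and 0.08 with the SD of each animal in the fit.

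Of the 6 calcium- or sodium-activated pore subunits 2 had a positive and 4 a negative difference, with a median of -0.09, or 0.01 with the SD of each animal in the fit. Kcnma1, the large-conductance channel that relaxes smooth muscle when calcium rises, read 6.71, 6.52 and 6.76 in MetS and 6.84, 6.88, 6.94 and 6.65 in controls. The groups overlapped through control 4, and the difference was -0.16 ± 0.09 (SE), or -0.01 with the SD of each animal in the fit. Kcnmb1, its smooth muscle subunit that raises the calcium sensitivity of the pore, went the other way in these animals, at 7.50 ± 0.12 in MetS and 7.28 ± 0.21 in controls, with overlapping groups. Its difference was 0.22 ± 0.13 (SE), or 0.28 with the SD of each animal in the fit. Of the smooth muscle markers 8 of 9 had a positive difference, with a median of 0.23, or 0.06 with that SD. Their median level lay between 8.52 and 8.83 in MetS and between 8.27 and 8.67 in controls, and MetS 2 had the highest Myh11, a smooth muscle myosin, at 9.42. Their part in the Kcnmb1 value was not tested.

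Kcnn4, the intermediate-conductance channel of endothelium, lymphocytes and airway epithelium, stood at 7.73 ± 0.19 in MetS and 7.70 ± 0.06 in controls. Kcnn3, a small-conductance channel of endothelium, stood at 9.39 ± 0.42 and 9.54 ± 0.22, with MetS 1 at 9.87 above every other animal and MetS 2 at 9.07 below. With the SD of each animal in the fit the Kcnn3 difference went from -0.15 to -0.55, and it was -0.38 without MetS 1 and 0.02 without MetS 2. At an unadjusted p under 0.05 limma called it with that SD, beside Kcnmb2, and without MetS 1, as the 1 member called there. With that SD 2.41% of members were lower, against 1.87% of all probes. Without MetS 1 the shares were 1.2% and 4.7%. Kcnn1 stood at 7.92 ± 0.01 and 7.96 ± 0.08. Kcnt2, a sodium-activated channel picked after its value was seen, stood at 6.99 ± 0.12 and 7.28 ± 0.21 and was highest in controls 2 and 3, at 7.50 and 7.39.

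The auxiliary subunits had 16 members, 10 with a positive and 6 with a negative difference and a median of 0.02. Kcnip3, a calcium-binding protein that attaches to the fast transient channels and also represses transcription, read 9.09, 8.52 and 8.64 in MetS and 8.29, 8.42, 8.47 and 8.55 in controls. MetS 1 stood apart above all others, and MetS 2 lay within the controls. The difference was 0.32 ± 0.14 (SE), the widest positive one of the family with all 7 animals (limma, adjusted p = 0.378). Without MetS 1 it was 0.15, and those of Kcnk1, 0.30, and Kcnmb1, 0.29, were wider. Kcne2 and Kcne3, small partners of Kcnq1 that hold it open in epithelia, differed by -0.10 ± 0.08 (SE) and 0.16 ± 0.17 (SE). Kcne3 spread widely within MetS, from 7.22 in MetS 2 to 7.81 in MetS 1 and 3. Kcne4, which inhibits Kcnq1, differed by -0.02 ± 0.07 (SE).

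Kcnab1 and Kcnab2, the cytoplasmic partners of the Kcna pores, differed by 0.04 ± 0.12 (SE) and 0.02 ± 0.07 (SE). Kcnmb2, a subunit of the large-conductance channel picked after its value was seen, followed controls 2 and 3, which at 7.56 and 7.29 were the 2 lowest animals, against 7.82 to 8.16 in the other 5. Its difference was 0.18 ± 0.22 (SE), and -0.38 with the SD of each animal in the fit.

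Kcnip2, the subunit that heart muscle needs for its transient outward current, had 2 probes that differed in their spread between animals. The probe with the higher mean read 6.71, 6.68 and 6.69 in MetS and 6.77, 6.45, 6.47 and 6.69 in controls. The other probe read 6.93, 6.62 and 6.47 in MetS and 7.62, 6.26, 5.94 and 6.19 in controls, with control 1 and then MetS 1 as the highest animals. The 2 arrays of control 1 differed by 0.04 on that probe and those of MetS 1 by 0.01. These 2 animals also had the brightest heart muscle markers. Relative to the control mean, the median of 10 such markers lay at 2.89 in control 1, at 1.49 in MetS 1 and between -0.96 and -0.47 in the other 5 animals. As a level, that median lay between 7.32 and 9.08 in MetS and between 6.99 and 10.42 in controls. Of the markers, 7 were highest in control 1 and then MetS 1, among them the heart muscle myosins Myh6, at 11.13 and 9.61, and Myh7, at 10.68 and 9.35, and the myosin light chain Myl3, at 11.15 and 9.73. The atrial genes Myl7, Nppa and Sln were not highest in these animals, at 7.71, 6.76 and 7.46 in control 1 and 7.38, 6.76 and 7.37 in MetS 1. The part of heart muscle RNA in the Kcnip2 values was not tested. Neither probe differed between MetS and control beyond its spread, at 0.10 ± 0.09 (SE) and 0.17 ± 0.39 (SE). The probes of Kcnip1 differed by 0.02 ± 0.07 (SE) and -0.14 ± 0.09 (SE), opposite in sign.

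**Figure D3:**
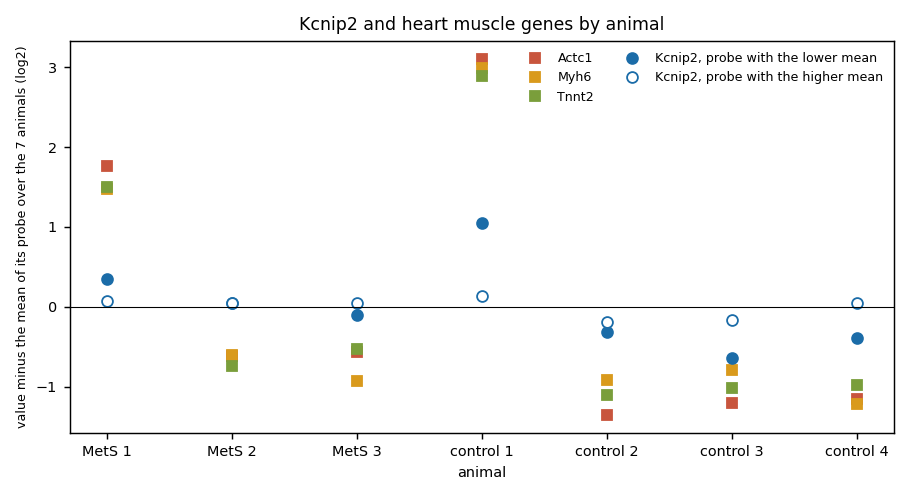
Value of each animal minus the mean of the same probe over the 7 animals, on the log2 scale, for both Kcnip2 probes (circles) and 3 heart muscle genes (squares). Control 1 and MetS 1 lie highest for the heart muscle genes and for the Kcnip2 probe with the lower mean, while the other Kcnip2 probe stays between 6.45 and 6.77 before centring.

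At the median, differences were lower among dim members than among brighter ones. The 65 brighter members had 38 positive and 27 negative differences and a median of 0.02, and the 18 dim ones had 4 positive and 14 negative and a median of -0.07, which was 0.1 when the arrays were quantile normalized again. Of the brighter members 2 were higher and 0 lower at an unadjusted p under 0.05 in limma, against 4.43% and 5.05% of brighter probes, and 1 was higher and 1 lower without overlap, against 5.94% and 3.21%. Genes with 1 symbol did the same to a larger extent, with a median of 0.06 for the brighter and -0.23 for the dim ones. With all probes sorted by brightness into 10 bins of equal size, the median ran from -0.13 in the dimmest to 0.09 in the ninth. In the second bin, where 12 members lie, members had a median of -0.10 and all probes one of -0.13. In the ninth, 2 members had a median of -0.12 against 0.09 for all probes. In the brightest, 3 members had one of 0.23 against 0.05.

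The slope of all probes with brightness went along with the array SD, which was smallest in controls 2 and 3. Those 2 controls both lay above controls 1 and 4 for 33 members and both below for 13, against 29.8% and 27.4% of all probes. With the SD of each animal in the fit the dim members had a median of 0.04 and the brighter ones one of 0.06. Without controls 2 and 3 the medians were -0.01 and 0.02. Under the limma fit with the SD, 0 members were higher and 2 lower (2.41%) at an unadjusted p under 0.05, against 1.68% and 1.87% of all probes. Kcnmb2 and Kcnn3 were those 2, and neither is among the 4 of the comparison without the SD. As the SD and the groups move together, at 1.876 to 1.932 in MetS and 1.759 to 1.883 in controls, the part of each cannot be told apart.

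**Figure D4:**
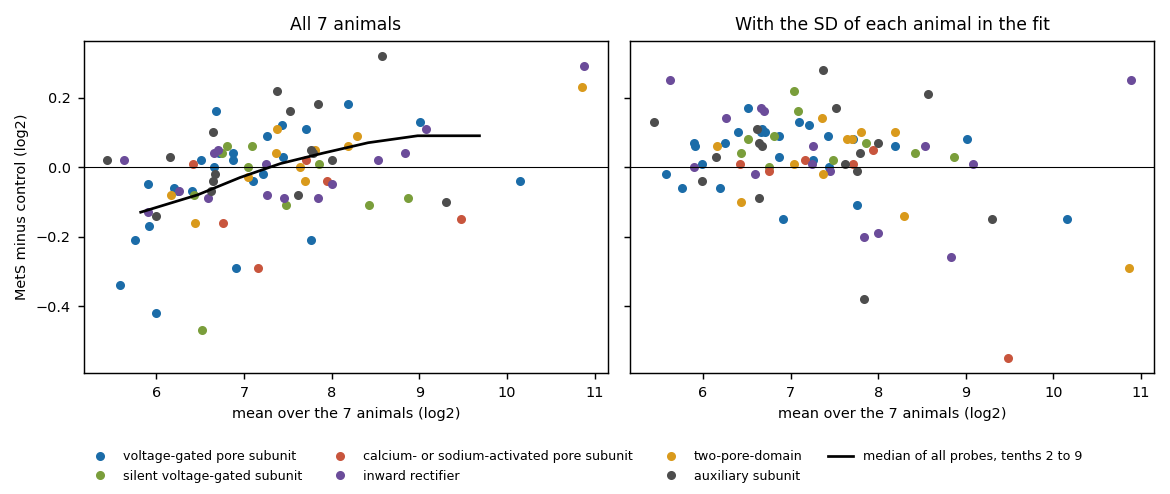
MetS minus control (log2) of the 83 members against the mean of their probe over the 7 animals (log2), coloured by role, without (left) and with (right) the SD of each animal as a covariate. The black line joins the medians of all probes in 10 bins by brightness, from -0.13 in the second to 0.09 in the ninth; on the right, Kcnv1 and Kcnh7 no longer lie at the lower edge.

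Genes that work beside the channels had small differences at the median. The median size was 0.04 for partner genes and 0.06 for genes of calcium entry and excitability, beside 0.07 for members. Of 17 measured partner genes (receptors, anchoring proteins, further auxiliary subunits and the related Hcn pacemaker channels) 10 had a positive and 7 a negative difference, with a median of 0.00, and 0 reached an unadjusted p under 0.05. Dpp10, an auxiliary subunit of the Kcnd channels, read 4.68, 4.65 and 4.74 in MetS and 4.76, 5.21, 5.17 and 4.76 in controls. Its groups did not overlap, controls 2 and 3 were again the highest, and the difference went from -0.29 to -0.07 without them. Lrrc55, a partner of the large-conductance channel, stood at -0.22 ± 0.10 (SE), and Ywhab, an abundant adaptor that helps channels reach the membrane, at 0.14 ± 0.07 (SE).

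Of 20 genes of calcium entry and excitability, 15 had a positive and 5 a negative difference with a median of 0.06, and Atp2b4, a calcium pump of the cell membrane, was the 1 with an unadjusted p under 0.05 in limma. It stood at a difference of 0.23 ± 0.09 (SE) (adjusted p = 0.344). Cacna1c, the main calcium channel that potassium channels of smooth muscle hold shut, differed by 0.08 ± 0.08 (SE). Ryr3, a calcium release channel, differed by -0.84 ± 0.42 (SE), wider than any member. It read 6.71 in MetS 3 and 7.70 in MetS 1, against 8.35 to 8.77 in the other 5 animals. Cacna2d1, a subunit of the calcium channel, differed by 0.23 ± 0.12 (SE).

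Members that lie next to each other among protein-coding genes of GRCr8 were set side by side. Kcnj15 follows Kcnj6, whose difference was 0.05 beside 0.29 for Kcnj15. Kcna3, Kcna2 and Kcna10 form one run, at -0.04, -0.21 and -0.07, and Kcna5, Kcna1 and Kcna6 another, at -0.04, -0.06 and -0.05. Kcnj16 and Kcnj2 differed by 0.02 and 0.04, and Kcnj9 and Kcnj10 by -0.07 and -0.08. Kcnj5 and Kcnj1 differed by -0.09 and -0.13, and Kcnip1 and Kcnmb1 by 0.02 and 0.22. None of these genes other than Kcnj15 had an unadjusted p under 0.05.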

How the data were processed

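The members, lists, tests and alternatives were chosen with earlier results of these data known. RNA with an integrity number of at least 6 was used and 50 ng labelled, per the labels' protocols. The authors deposited log2 expression values, 1 row per transcript cluster (probe) and 1 column for each of 9 arrays. Per the submitters' processing notes the tools were R 2.11.0, RMA and limma, listed without their roles. A genome build was not given in the sources used here. Array medians lay between 7.635 and 7.686. The 2 arrays of MetS animal 1 and of control animal 1 were averaged, and the 7 animals went into 1 fit of all 28826 probes (limma 3.58.1, lmFit then eBayes, R 4.3.3). Differences are MetS minus control, and p-values were adjusted by Benjamini-Hochberg with 0.05 as the threshold. Moderation left 7.28 degrees of freedom; the number of animals limits the precision. The test was also run on simulated data with independent noise and added differences wider than that of any member. How often it finds differences of the size seen in the members was not examined. The labels name no array batch, so batches were not tested.

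Gene symbols came from the annotation of the array platform: of the probes, 15209 had 1 gene symbol, 306 several and 13311 none. All 83 members matched RefSeq by gene ID with the same symbol. Kcnk5 shares its probe with Kcnk16 and was left out. Tables and figures were made with pandas 2.3.3 and matplotlib 3.10.9 in Python 3.11.15.

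Named members were the 3 brightest of each class, those with an unadjusted p under 0.05 or no overlap (of the dim ones at most 5), and 24 genes known from lung, 36 in all; Kcnv1, Kcnt2, Kcnmb2, Kcnj11 and genes given only in counts, ranges, lists or neighbour runs fall outside that rule and were picked after values were seen. Of the partner and calcium lists the 3 with the smallest p were named, with Abcc8, Abcc9 and Cacna1c added. The alternatives were another choice of arrays, normalization, filter, moderation, weights, covariate, block or probe, and leaving out animals. The replicate numbers of the 2 groups were not taken to pair the animals, as the labels do not say that they do. No protein table was used here, so pore sequences were not compared.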

Additional observations from a re-analysis of the deposited data

Results flagged for a closer look

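In 13 of the 83 members, 1 control stood far from the other 3, its gap to the nearest making up most of the range of the 4 controls and passing the critical value of Dixon's test. These are 15.7% of the members, beside 7.6% of all probes in the same 4 controls. Chance marks about 1 in 20 groups in this way, and groups of 3 were not examined. Control 2 was the one apart for Kcne2, at 9.16 against 9.38 to 9.41, Kcnmb4, at 7.60 against 7.77 to 7.80, Kcnk15, at 7.17 against 7.01 to 7.02, and Kcna2, at 8.08 against 7.75 to 7.80. Control 3 was apart for Kcnj14, at 7.62 against 7.44 to 7.46, Kcnj1, at 6.19 against 5.87 to 5.90, and Kcnv2, at 6.67 against 6.37 to 6.41. Control 4 was apart for Kcnn4, at 7.79 against 7.67 to 7.68, Kcnj12, at 8.45 against 8.54 to 8.55, Kcnj11, at 6.45 against 6.69 to 6.74, Kcng2, at 8.71 against 8.96 to 9.01, and Kcnh3, at 7.46 against 7.41 to 7.42. Control 1 was apart for Kcna1, at 6.25 against 6.22. The gaps of Kcna1, 0.03, and Kcnh3, 0.04, were below the median member difference between the 2 arrays of MetS 1 or of control 1. The other 11 gaps were above both medians. The gaps of Kcnn4, 0.11, and Kcnmb4, 0.17, were still smaller than the difference between the control 1 arrays for the same gene, 0.21 and 0.20. So was that of Kcna1, at 0.16 between those arrays. Kcnh3 aside, the remaining gaps were larger than both array differences of their own gene.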

How the results depend on the processing

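With limma, 0 members passed the adjusted threshold in every alternative run other than the replicate block, in which the replicate number pairs animals 1 to 3 of each group: there Kcnv1 passed (adjusted p = 0.0429), as did 2017 of all probes. Nothing in the labels pairs the animals, so the numbers were not taken as pairs. The deviations of animals with equal numbers correlated at 0.271, -0.118 and 0.339, and those with unequal numbers at -0.286 to 0.385. These values do not settle whether the animals pair. The block run also leaves out control 4. In it 7 members (8.43%, all probes 15.8%) were lower at an unadjusted p under 0.05, and the inward rectifier median was -0.02. Without overlap, 4 were higher (4.82%, all probes 12.3%) and 12 lower (14.5%, all probes 16.4%). Leaving out control 4 without a block gave the same overlap shares, as overlap does not depend on the block.

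Quantile normalizing again gave 9 members higher (10.8%, all probes 8.02%) and 0 lower (all probes 6.91%) by the unadjusted p. It gave 11 higher without overlap (13.3%, all probes 9.0%). The medians were then 0.07 for the members, 0.12 for voltage-gated, 0.04 for silent, 0.07 for inward rectifier and 0.11 for auxiliary subunits. The SD covariate gave 0 higher (all probes 1.68%), and medians of 0.05, 0.07 (voltage-gated), 0.05 (silent), 0.01 (calcium- or sodium-activated) and 0.05 (auxiliary). Kcnh7 reversed to 0.01. Without controls 2 and 3 there were 1 higher (1.2%, all probes 1.43%) and 1 lower (1.2%, all probes 3.81%) by p. In the same run 11 were higher (13.3%, all probes 9.78%) and 5 lower (6.02%, all probes 9.3%) without overlap. Its medians were 0.05 (voltage-gated) and -0.04 (calcium- or sodium-activated). Without dim probes 1 was lower by p, Kcnt2 (1.54%, all probes 5.23%), and 1 without overlap (1.54%, all probes 3.21%). The calcium- or sodium-activated median was then -0.15. First arrays alone, or all arrays, left 0 lower without overlap (all probes 6.22% and 5.06%), and centring left 5 (6.02%, all probes 7.96%). Array weights gave an inward rectifier median of -0.02. At an unadjusted p under 0.01 there were 0 in either direction. Above the median of probe means lay 28 members. Overlap was not counted for the trend, weights and SD alternatives, which keep the same values.

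Leaving out 1 animal gave 0 (without MetS 1) to 5 (without MetS 2) higher and 0 (without MetS 2 or control 3) to 7 (without control 4) lower by p. Without overlap, where fewer animals overlap less, 2 to 6 were higher (2.41% to 7.23%, all probes 5.62% to 12.3%). In the same way 2 to 12 were lower (2.41% to 14.5%, all probes 7.23% to 16.4%). By p, all probes had 2.31% higher without MetS 2 (members 6.02%) and 14.4% lower without control 4 (members 8.43%). Where 0 members were called, all probes had 3.25% higher without MetS 1, 5.21% lower without MetS 2 and 5.93% lower without control 3. The medians were -0.03 to 0.01 for members, -0.05 to 0.01 for inward rectifiers and -0.01 to 0.06 for 2-pore-domain channels. Kcnj15 kept its unadjusted limma call in 17 of 19 alternatives, but lost it with the SD covariate (difference 0.25) and without MetS 1 (difference 0.23). Of the 36 members named by rule and Kcnv1, 37 in all, 12 had the other sign under the SD covariate and 10 without controls 2 and 3. The cause of these changes was not tested. The 18 dim members are limited by low signal.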

Other observations

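Some members gave exactly the same value, to 5 decimals, on several of the 9 arrays. This was so on at least 3 arrays for 31 of the 83 members, 37.3%, against 20.6% of all probes, and on at least 5 arrays for 4 members, 4.82%, against 3.0%. Those 4 were Kcna1 at 6.22 and Kcnj4 at 7.25, with 6 equal arrays each, and Kcnh3 at 7.42 and Kcnk13 at 8.17, with 5 each. Kcna1 and Kcnh3 are also among the members in which 1 control stood apart, there by a few hundredths. So are Kcnj12, Kcnj1 and Kcnk15, with 4 equal arrays each, and Kcnj14 and Kcnj11, with 3 each. Kcne2, Kcnmb4, Kcnn4, Kcng2, Kcnv2 and Kcna2, in which 1 control also stood apart, had a different value on each array. The part of equal values in the share of members with 1 control apart was not tested.

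Red cell markers were higher in MetS for 4 of 4 measured genes, with a median difference of 0.57, or 0.11 with the SD of each animal in the fit. Markers of nerve and Schwann cells, which express many of the dim channels, had 1 positive and 6 negative differences. Their median was -0.09, or 0.06 with that SD. Of these 7 markers 2 lay above the 25th percentile of probe means, and dim genes with 1 symbol had a median of -0.23. The part of red cell and nerve markers in the channel values was not tested.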
